A study of Mus musculus with 40 samples.

Results

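The MHC class II antigen presentation genes described here are H2-Aa, H2-Ab1, H2-Eb1, H2-DMa, H2-DMb1, Cd74 and Ciita. They were taken by symbol from the count table of the series, in which they are 7 of 52636 genes, and all 7 passed the filter on low counts. The table comes from bulk RNA sequencing of brown adipose tissue, the heat-producing fat, of 40 male C57BL/6 mice in 8 groups of 5. Every mouse had received antibody. Control mice had 40 mg/kg of an antibody against ragweed, and Jag antibody mice had 20 mg/kg of an antibody against Jag1 together with 20 mg/kg of an antibody against Jag2, which are ligands of the Notch receptors. One control group and one Jag antibody group were collected at each of 15 h, 5 d and 7 d. Another group of each kind was collected at 7 d after daily T4 at 1 ug and T3 at 0.05 ug per g of body weight, begun on day 2. The sources give the age as 10 to 12 weeks in one place and 10 to 14 weeks in another. No mouse without antibody was measured, so the effect of receiving an antibody at all is shared by every group.

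Class II molecules display peptides from proteins that a cell has taken up, for recognition by CD4+ T cells, and are carried mainly by dendritic cells, macrophages and B cells, with lower or inducible display on other cells. An α and a β chain form the molecule (H2-Aa and H2-Ab1 for I-A, H2-Eb1 as the β chain of I-E), and Cd74, the invariant chain, fills the groove until H2-DMa and H2-DMb1, the chains of H2-M, help exchange its remnant for a peptide. Ciita encodes the coactivator that switches the pathway on. It does not bind DNA itself and is held at class II promoters by the RFX, CREB and NF-Y factors on neighbouring elements called the X and Y boxes.

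Promoter sequence was at hand for 4 of the 7 genes (RefSeq, GRCm38.p6, windows of 250 bases before to 50 bases after the start). H2-Aa, H2-Eb1 and H2-DMb1 each held the letters GNAAC, which begin an X box. On the gene's strand these were followed by ATTGG, the reverse complement of the CCAAT letters bound by NF-Y. The stretches are shown because this arrangement is what Ciita acts through, which was not tested here. Whether the pair goes with how these genes varied between mice was not tested either, and only 4 of the 7 genes had a window. Capitals mark the matches, and each stretch is written 5′ to 3′ on the gene's strand.
H2-Aa: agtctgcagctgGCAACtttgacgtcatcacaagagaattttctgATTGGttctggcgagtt
H2-Eb1: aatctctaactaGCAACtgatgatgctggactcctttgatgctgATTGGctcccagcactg
H2-DMb1: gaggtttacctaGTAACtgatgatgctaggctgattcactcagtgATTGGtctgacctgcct
The stretches lie at chr17:34287855-34287916 on the minus strand (H2-Aa), chr17:34305764-34305824 on the plus strand (H2-Eb1) and chr17:34153085-34153146 on the plus strand (H2-DMb1). From the first letter of GNAAC to the first letter of ATTGG there were 33 bases in H2-Aa, 32 in H2-Eb1 and 33 in H2-DMb1. GNAAC began 81, 91 and 94 bases before the RefSeq start in that order. The H2-DMb1 stretch lies within the GENCODE gene, whose start is placed further upstream. Neither window of H2-DMa held the pair, which says only that these letters are not there. The letters were chosen after the windows had been seen. On either strand, GNAAC was present in 84.8% and ATTGG in 37.4% of 32851 windows of this length, and the pair at 15 to 45 bases in 4.87%. A match of letters is a description and not a measured binding site.

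On GRCm38 (GENCODE M21), 5 of the genes lie within the class II region of chromosome 17. H2-DMa (ENSMUSG00000037649) spans 34119541 to 34139101, H2-DMb1 (ENSMUSG00000079547) 34153072 to 34160230 and H2-Ab1 (ENSMUSG00000073421) 34257689 to 34269419. H2-Aa (ENSMUSG00000036594) spans 34282744 to 34287823 and is the only one of these on the minus strand, and H2-Eb1 (ENSMUSG00000060586) spans 34305867 to 34316674. Cd74 (ENSMUSG00000024610) is on chromosome 18 at 60803848 to 60812652, and Ciita (ENSMUSG00000022504) is on chromosome 16 at 10480059 to 10528418. Values are over whole genes, exons together, and do not separate transcripts. Of the 50-base stretches of H2-DMb1 transcripts, 22.7% also occur in H2-DMb2, its close copy, so its counts are uncertain to that extent. H2-DMa shares 8.43% with Brd2 and Ciita 1.46% with Dexi on the opposite strand, and whether counting used the strand is not given in the sources used here.

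The libraries held 12217623 to 36511893 counts. The tissue label was met by Ucp1, the uncoupling protein of brown fat, at a median of 4716 CPM (counts per 1000000 counts of the TMM-scaled library), while skeletal muscle genes were also present, with a summed level of 8 genes from 0.878 to 175926 CPM. Libraries differed in how counts ran with transcript length. The length slope (change in log2 CPM per log2 of exonic length, relative to the mean library) ranged from -0.54 to 0.25. At 15 h, 3 mice stood apart in immune markers. Control mice 2 and 3 had summed levels of 8 macrophage genes of 3470 and 2750 CPM, against 440 to 829 in the other control mice of that time. Jag antibody mouse 6 had summed B cell markers of 102 CPM, against 1.71 to 13.3 in the other 39 mice. Of 5 lymph node stroma genes, Ccl21a and Ccl19 were at 0 in all 40 libraries, Cxcl13 in 0 and Cr2 in 1, and their summed level at 15 h was 11.2 to 36.02 CPM in Jag antibody mice (highest in mouse 6) and 2.62 to 8.89 CPM in control mice. In whole tissue, fewer cells of a type and less RNA per cell cannot be told apart. The labels give 1 sample per mouse and do not say whether mice were housed or processed together.

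Cd74 was the most abundant of the 7 genes and Ciita the least. Per length (CPM per kb of the longest coding transcript), the median over 40 mice was 110 for Cd74, with a range of 29.0 to 406. The I-A chains followed, H2-Aa at 87.6 (24.2 to 316) and H2-Ab1 at 45.5 (9.35 to 199), beside H2-Eb1 at 44.6 (9.46 to 166). H2-DMb1 and H2-DMa, which act in peptide loading, were about an order of magnitude lower at 4.47 and 4.27. Ciita was at 0.412 (0.146 to 1.83), and its lowest library still held 7 counts. Single mice differed widely, the highest over the lowest CPM being 9.17 for H2-DMa and 21.3 for H2-Ab1, with the other 5 genes between these. H2-Ea-ps, the remnant of the α chain gene that pairs with H2-Eb1 and is disrupted in C57BL/6 mice, had 0 counts in all 40 libraries, where a count of 0 allows up to 3 by counting error alone.

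**Figure D1:**
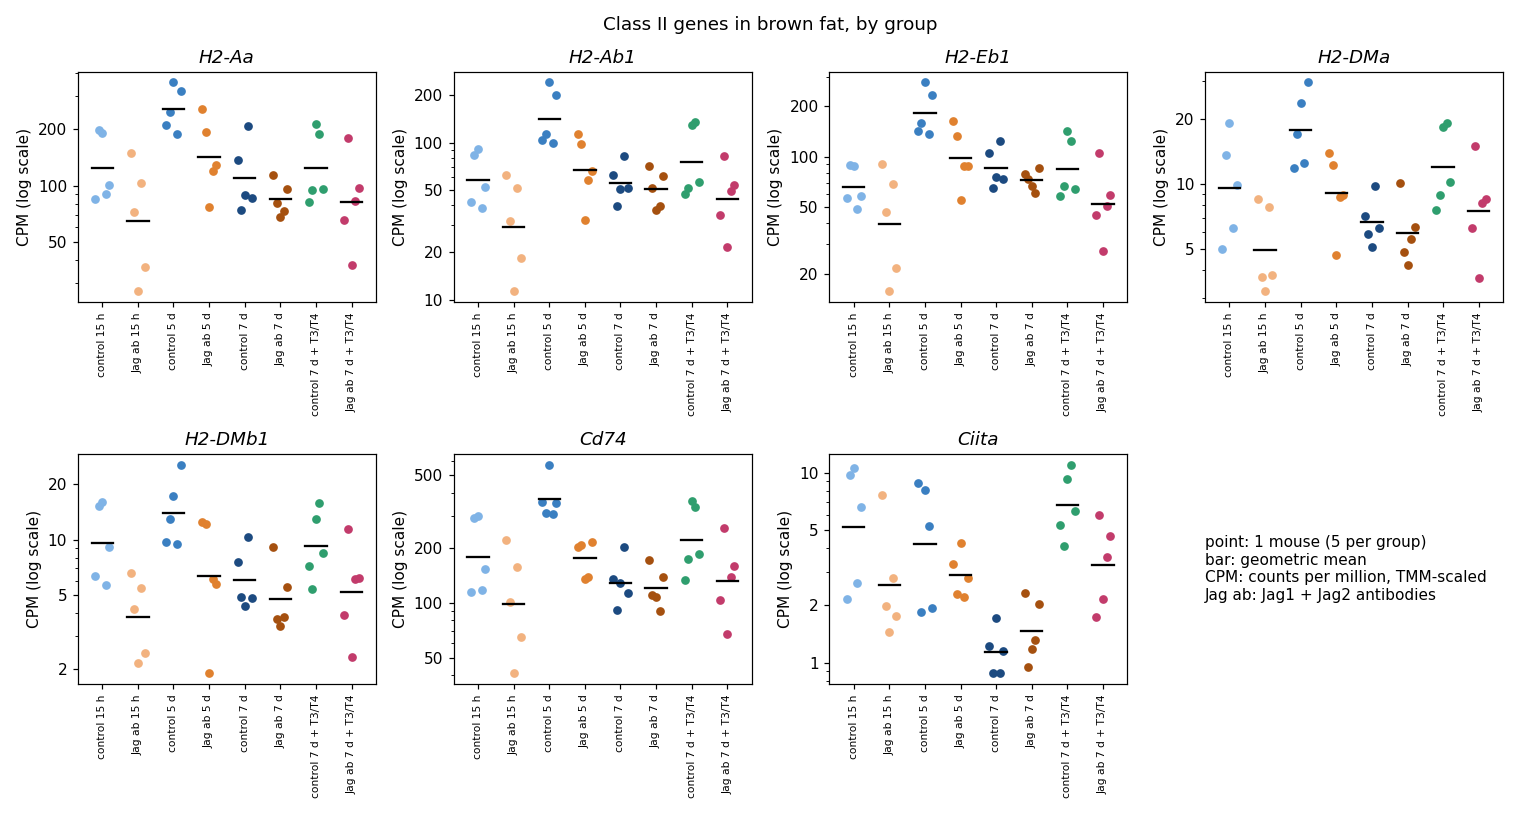
Levels in CPM (log axis) of each gene in every mouse, by group, with the geometric mean of 5 mice as a bar. The control mice at 5 d are highest in mean for 6 genes, with H2-Ab1 from 99.7 to 242 CPM, and Ciita alone has its lowest group in control mice at 7 d, from 0.878 to 1.71 CPM.

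The groups at the top and bottom were the same for 6 of the genes and others for Ciita. H2-Aa, H2-Ab1, H2-Eb1, H2-DMa, H2-DMb1 and Cd74 were highest in control mice at 5 d and lowest in Jag antibody mice at 15 h. Cd74, for example, was at 8.53 ± 0.37 log2 CPM in the first and 6.62 ± 0.97 in the last (SD, n = 5). Ciita was highest in hormone-treated control mice, at 2.77 ± 0.57, and lowest in control mice at 7 d, at 0.30 ± 0.37 log2 CPM (SD, n = 5). Neighbours in these orders were mostly not separable. Of 49 steps from one group to the next, 45 were smaller than the larger SD of the pair, and the ranges of all 49 pairs overlapped.

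Between 15 h and 5 d in control mice, the I-A β chain, the I-E β chain and the invariant chain rose while Ciita did not. Each time was measured in different mice. In every comparison of times, time cannot be told apart from the day of collection or a batch that went with it. H2-Eb1 was at 56.4, 89.6, 88.2, 48.5 and 58.0 CPM at 15 h and at 143, 159, 277, 137 and 234 CPM at 5 d. Every 5 d mouse was above every 15 h mouse, with a change of 1.48 on the log2 scale (SE 0.37, adjusted p = 0.0029 by edgeR's quasi-likelihood test). H2-Ab1 was at 41.9, 83.9, 90.7, 38.6 and 51.8 CPM at 15 h and 104, 114, 242, 99.7 and 201 CPM at 5 d. These ranges were likewise apart, with a change of 1.31 on that scale (SE 0.41, adjusted p = 0.0129). Cd74 was at 115, 293, 299, 117 and 153 CPM and then at 355, 311, 573, 308 and 352 CPM. Its ranges came close without overlapping (0.96, SE 0.36, adjusted p = 0.0379), and mouse 3 at 5 d was far above the other mice of its group. H2-Aa, the α chain of I-A, was at 84.4, 198, 191, 90.2 and 100 CPM and then at 210, 247, 357, 189 and 320 CPM. Here 1 mouse at 5 d lay within the 15 h range, and the value was 0.99 (SE 0.41, adjusted p = 0.0521), with H2-DMa at 0.80 (0.0861) and H2-DMb1 at 0.51 (0.353). Ciita, at 2.16, 9.66, 10.5, 2.62 and 6.59 CPM at 15 h and 8.78, 1.85, 8.11, 5.23 and 1.93 CPM at 5 d, was spread over the same range at both times at -0.28 on the log2 scale (SE 0.45, adjusted p = 0.652). The 3 of 7 genes that rose stand beside 36.4% of 17079 genes called in this comparison, 16.2% upward, and the median of the 7 was 0.96 where that of all genes was -0.01.

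At 15 h the control mice with most macrophage transcripts were also high in these genes. In control mice 2 and 3, H2-Aa was at 198 and 191 CPM, against 84.4 to 100 in the other 3, and Ciita, Cd74 and both H2-DM genes were also highest there. Without those mice and Jag antibody mouse 6, an alternative added after seeing the data, 5 of the 7 genes were called in control mice between 15 h and 5 d, with H2-Eb1 at 1.82 (adjusted p = 0.00976) and H2-Aa at 1.54 (0.0303) on the log2 scale. Leaving out the control mice with high 15 h levels enlarges the rise by construction, so these values are no separate support for it. Skeletal muscle transcripts moved with time as well, with a muscle score (mean log2 CPM of 8 genes) of 2.49 ± 5.75 at 15 h and 9.90 ± 3.31 at 5 d (SD, n = 5). With that score as a covariate 1 of 7 genes was called, and with only these 10 mice in the fit 0 were. That fit called 0 genes of the whole table by edgeR, with 5681 at an unadjusted p under 0.05, 5 of the 7 among them.

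From 5 d to 7 d in control mice, 5 of the 7 genes fell, Ciita by the most. The 7 d values of Ciita were 1.23, 0.878, 1.71, 0.886 and 1.15 CPM, all below the lowest 5 d mouse, and Ciita changed by -2.13 on the log2 scale (SE 0.49, adjusted p = 0.00754). Cd74 was at 134, 91.6, 128, 201 and 113 CPM at 7 d, again below every 5 d mouse (-1.51, SE 0.37, adjusted p = 0.0107). H2-DMa, one chain of the peptide exchange factor, was at 7.10, 5.88, 5.13, 9.75 and 6.27 CPM at 7 d after 11.8, 16.9, 23.6, 12.4 and 29.4 CPM at 5 d. It changed by -1.47 on the log2 scale (SE 0.38, adjusted p = 0.0152). H2-Ab1 changed by -1.41 (SE 0.41, adjusted p = 0.0267) and H2-Eb1 by -1.11 (SE 0.37, adjusted p = 0.0499). H2-Aa at -1.15 (adjusted p = 0.0658) and H2-DMb1 at -1.23 (adjusted p = 0.0691) missed the threshold by edgeR. DESeq2 called all 7, with H2-Aa at -1.19 (adjusted p = 0.0346) and H2-DMb1 at -1.28 (0.0347), and each of these was called in 4 of 10 alternatives. This comparison called 9.13% of all genes, 4.42% downward. It shares its 5 d mice with the preceding one, so both rest on the same 5 d values.

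Macrophage markers fell over the same interval. In control mice 5 of 8 were called lower at 7 d than at 5 d, among them Adgre1 (-1.95) and Csf1r (-1.92), the CSF1 receptor, with a median log2 fold change of -1.63 over the list. Their summed level was 564 to 1122 CPM at 5 d and 184 to 437 CPM at 7 d, with no marker of the list at 0 in any library. Of 8 conventional dendritic cell markers 2 were lower, Cd209a (-3.17) and Clec10a (-2.85), beside 4.42% of all genes called lower. The part of these cells in the class II values was not tested. Without the 3 control libraries that had a length slope under -0.3 (mice 2 and 5 at 5 d, mouse 4 at 7 d), 6 of the 7 genes were called, and Ciita was at -2.59 (adjusted p = 0.00291). In the model with the muscle score the count was 1, Ciita, at -2.10 (adjusted p = 0.0337), and in the fit of only these mice it was 1, Cd74, at -1.55 (adjusted p = 0.0378). H2-Ab1 and H2-Eb1 both lost their call without control mouse 3 at 5 d (adjusted p = 0.0985 and 0.151) or without control mouse 2 at 7 d (0.0836 and 0.128).

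In Jag antibody mice, also different animals at each time, the same steps gave a single call. H2-Eb1 was at 90.8, 46.5, 15.8, 68.3 and 21.6 CPM at 15 h and at 163, 134, 55.1, 87.8 and 87.7 CPM at 5 d. The ranges overlapped, and the change was 1.12 on the log2 scale (SE 0.37, adjusted p = 0.0368). The other values ran from 1.07 for H2-Ab1 (adjusted p = 0.0684) and 0.99 for H2-Aa (0.0914) to -0.07 for Ciita. This comparison called 14.5% of all genes, 8.22% upward. Jag antibody mouse 6, the 15 h mouse with B cell and T cell transcripts, had the highest CPM of its group for all 7 genes, from 222 for Cd74 to 6.62 for H2-DMb1. Without it 3 genes were called, H2-Aa at 1.37 (adjusted p = 0.032) and H2-Ab1 at 1.38 (0.0324) joining H2-Eb1 at 1.47 (0.0122). Leaving out the highest mouse at 15 h likewise enlarges the rise by construction. Between 5 d and 7 d, 0 of the 7 genes were called in Jag antibody mice by edgeR, DESeq2 or limma, and 1 had an unadjusted p under 0.05 by edgeR. Values there ran from -0.92 (Ciita, adjusted p = 0.301) to -0.50 (H2-Ab1), beside 3.29% of all genes called.

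**Figure D2:**
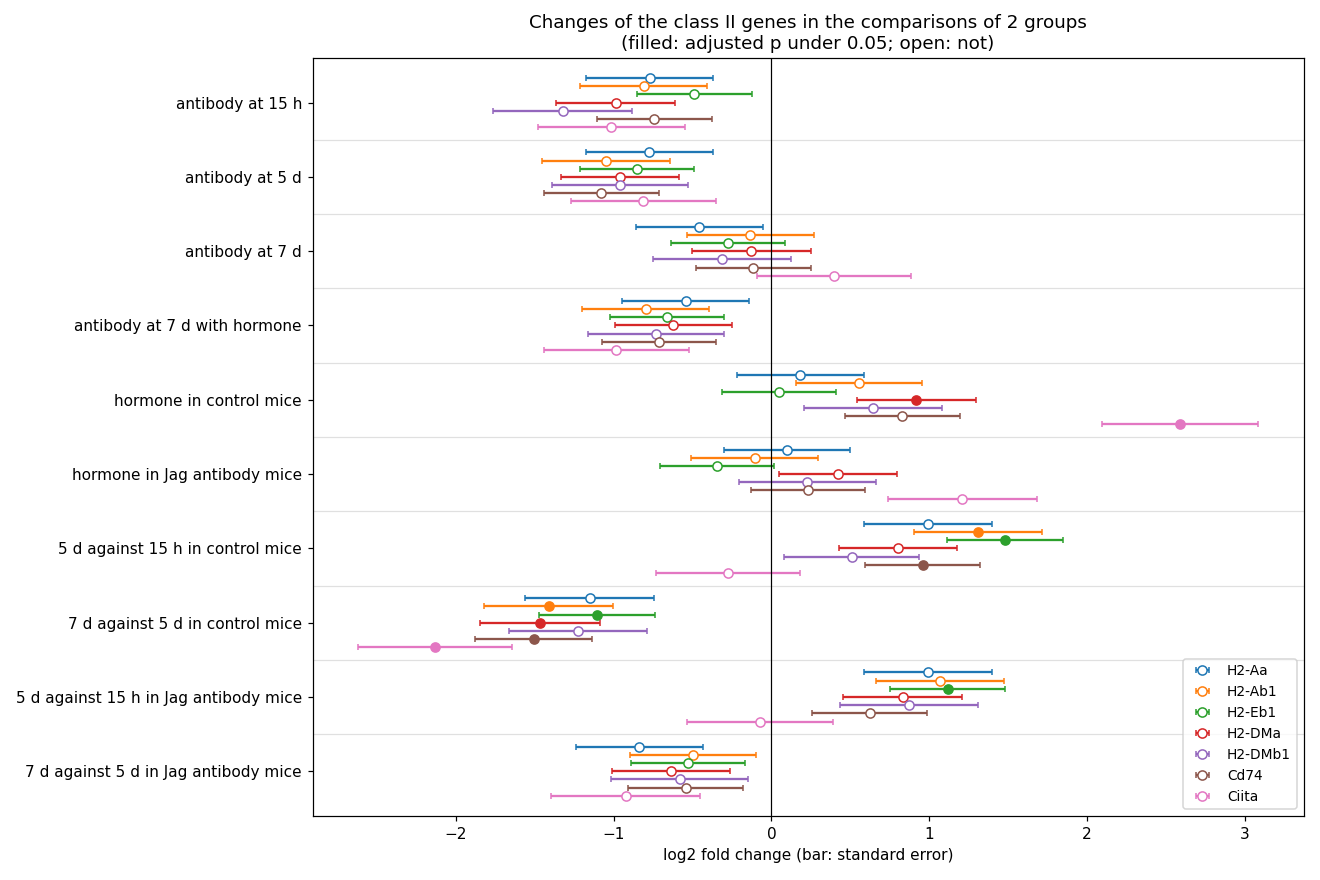
Log2 fold change of each gene in the 10 comparisons of 2 groups, with the standard error as a bar and filled points for adjusted p under 0.05. Of the antibody values 27 of 28 lie below 0 and all are open, while filled points occur in the hormone comparison of control mice (Ciita at 2.59 and H2-DMa at 0.92) and between times.

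Average levels were lower in Jag antibody mice for nearly every class II gene, and none of these differences passed the test. Over 4 comparisons, 27 of 28 log2 fold changes were below 0 and 0 were called by edgeR, with 10 at an unadjusted p under 0.05. DESeq2 called 2, both at 5 d, and limma on FPKM values called 0. The members of a comparison are strongly correlated over mice and do not count as separate observations. Among all genes, the share below 0 was 55.0% for the 15 h comparison, 46.6% for 5 d, 46.4% for 7 d and 51.8% in hormone-treated mice. Of 8 macrophage markers, 7 were below 0 at 15 h with a list median of -1.35 and 1 called (Lyz2, -2.32). When the mice that stood apart at 15 h were left out, 0 of these markers were called then, with a list median of -0.27. With all mice, 7 of these markers were below 0 at 5 d with a list median of -0.72 and 0 called. Their medians were 0.82 at 7 d and -0.27 with hormone, with 0 called by edgeR in either. Their part in the class II values was not tested.

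At 15 h, H2-DMb1 had the value farthest from 0. It was at 6.38, 15.2, 16.0, 5.70 and 9.10 CPM in control mice and 6.62, 4.24, 2.16, 5.46 and 2.44 CPM in Jag antibody mice, which is -1.32 on the log2 scale (SE 0.44, adjusted p = 0.122). Only Jag antibody mouse 6 reached into the control range. Ciita was at 7.66 CPM in that mouse and at 1.98, 1.44, 2.80 and 1.75 CPM in the other 4, which gives -1.01 on the log2 scale (SE 0.46, adjusted p = 0.354) and -1.66 (adjusted p = 0.081) without it. Leaving out the highest mouse of the group moves this value away from 0 by construction. The remaining genes ran from -0.99 (H2-DMa, adjusted p = 0.204) to -0.49 (H2-Eb1, 0.725), and the median of the 7 was -0.81 against -0.04 for all genes. Without all 3 mice that stood apart at 15 h the values ran from -0.98 (H2-DMb1) to -0.51 (Cd74). That of H2-DMb1 was nearer to 0, and that of H2-Eb1 was not. Of the 17079 genes 1.14% were called at 15 h, and 0 of the 7.

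At 5 d, Cd74 came closest to the threshold. Jag antibody mice had 203, 208, 135, 139 and 214 CPM, all below the lowest control mouse at 308 CPM, which is -1.08 on the log2 scale (SE 0.37, adjusted p = 0.0607). DESeq2 called it at -1.14 (adjusted p = 0.0234), as did edgeR with only the 10 mice compared, at -1.13 (0.0287), and edgeR without control mouse 1 (0.0467) or control mouse 2 (0.0466). H2-Ab1 was at 113, 98.3, 31.9, 58.2 and 65.7 CPM in Jag antibody mice, which overlapped the control mice (-1.05, adjusted p = 0.102), and was called by DESeq2 only, at -1.12 (adjusted p = 0.0495). The median of the 7 was -0.96 against 0.04 for all genes, of which 8.02% were called. Muscle transcripts also differed, the summed level being 1018 to 175926 CPM in control and 0.878 to 43.9 CPM in Jag antibody mice. Once the muscle score entered the model, Cd74 was at -0.88 (adjusted p = 0.448) and H2-Ab1 at -0.81 (0.561).

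At 7 d the groups lay together without hormone. H2-Ab1 was at 62.5, 39.4, 50.7, 81.6 and 51.6 CPM in control and at 70.7, 51.6, 37.1, 39.5 and 61.6 CPM in Jag antibody mice, with a log2 fold change of -0.13. Ciita had the 1 value above 0, at 0.40 (SE 0.49, adjusted p = 0.661), and the median of the 7 was -0.13 against 0.05 for all genes, with 2.50% called. With hormone at 7 d the values ran from -0.98 for Ciita (adjusted p = 0.381) to -0.54 for H2-Aa, with 1.14% of all genes called. No test showed that the antibody difference changed. The interactions of antibody with hormone at 7 d, and with time from 15 h to 5 d and from 5 d to 7 d, gave 21 values for the 7 genes. The edgeR test called 0 of them, the lowest adjusted p being 0.344. DESeq2 and limma also called 0, and 1 value had an unadjusted p under 0.05 by edgeR, that of Ciita for antibody by hormone (-1.38, SE 0.67, adjusted p = 0.397). Of all genes these interactions called 0.00586%, 0.0995% and 1.29%.

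With T3 and T4, Ciita rose in control mice, and the I-A and I-E chain genes were not called. Ciita was at 5.29, 4.09, 9.20, 11.01 and 6.27 CPM with hormone, and each of these mice was above all 5 control mice without hormone, whose highest was at 1.71 CPM. On the log2 scale Ciita rose by 2.59 (SE 0.50, adjusted p = 0.000141), or 6.02-fold. It was called in all 10 alternatives and in all 10 fits that left out a mouse of these groups. On log2(FPKM + 1), where this gene of low FPKM is compressed by the pseudocount, it was 0.20 (adjusted p = 0.00128). H2-DMa rose by 0.92 on the log2 scale (SE 0.38, adjusted p = 0.0468), from 5.13 to 9.75 CPM without to 7.56 to 19.1 CPM with hormone, and the ranges overlapped. That call was lost with RLE size factors (adjusted p = 0.0528), without the low-count filter (0.0577), on FPKM values (0.0717) and without any 1 of control mice 1, 2, 3 or 5 at 7 d (0.0678, 0.0984, 0.0994 and 0.0816) or of hormone-treated control mice 3 and 4 (0.126 and 0.134). Cd74 had 0.83 (SE 0.36, adjusted p = 0.0631), H2-DMb1 0.64 (0.235), H2-Ab1 0.56 (0.268), H2-Aa 0.18 (0.74) and H2-Eb1 0.05 (0.931). This comparison called 43.2% of all genes, 20.3% upward, and 2 of 7 is a share near that background. Its 5 control mice without hormone are also the 7 d mice of the fall from 5 d to 7 d. The Ciita calls of both comparisons therefore rest on the same 7 d values, and this was the lowest group for Ciita. Hormone-treated control mice 3 and 4 were the highest of their group for all 7 genes. For H2-Ab1 they had 130 and 135 CPM where mice 1, 2 and 5 had 47.1, 51.4 and 56.5 CPM, and for Cd74 they had 360 and 335 CPM where these had 133, 174 and 186 CPM. The same mice had the highest macrophage sums of the group, 1290 and 1483 CPM, against 742 to 900 CPM.

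In Jag antibody mice the hormone comparison called 0 of the 7 genes by edgeR, DESeq2 or limma, with 1 at an unadjusted p under 0.05. Ciita was at 1.74, 5.95, 2.17, 3.59 and 4.63 CPM with hormone and 2.33, 0.947, 1.18, 1.31 and 2.04 CPM without, and 2 hormone-treated mice lay within the range without hormone. The change was 1.21 on the log2 scale (SE 0.47, adjusted p = 0.0947), and 1.22 (adjusted p = 0.0466) with only these 10 mice in the fit. The other 6 genes ran from -0.34 (H2-Eb1) to 0.42 (H2-DMa), and 9.50% of all genes were called. Mouse 7 was the highest of the hormone-treated Jag antibody mice for all 7 genes, with 181 CPM of H2-Aa against 37.4 to 97.4 CPM in the others, and had the highest macrophage sum, 2224 CPM against 539 to 1075 CPM. The difference between the hormone effects is the antibody by hormone interaction given above, which was not called.

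Myeloid markers and the length slope moved with hormone in control mice. Of 8 macrophage markers 7 rose, beside 20.3% of all genes called higher, with a median log2 fold change of 2.33 over the list. Their summed level was 742 to 1483 CPM with hormone against 184 to 437 CPM without. Of 8 conventional dendritic cell markers 5 rose, among them Itgax (2.74) and the cytokine receptor Flt3 (2.31). The mean length slope was -0.23 without and 0.17 with hormone, and Ciita is much the longest of the 7 genes, with 9535 exonic bases against 1679 to 3798 in the others. With each library's length trend as an offset, 4 of the 7 genes were called. The alternatives as a set called 6312 to 7876 of all genes. With the offset Ciita was at 2.20 (adjusted p = 0.000584), Cd74 at 1.54 (0.00262) and H2-DMb1 at 1.35 (0.0097). The part of macrophages or dendritic cells in these values was not tested.

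**Figure D3:**
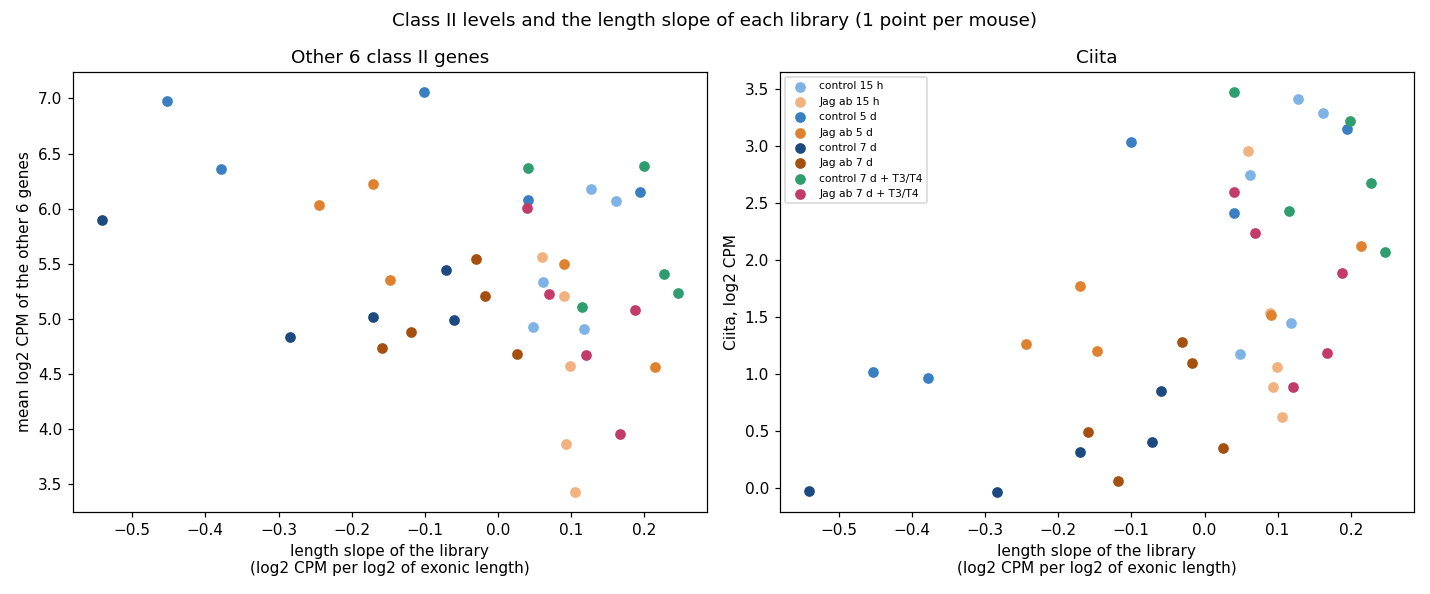
Mean log2 CPM of the 6 genes other than Ciita (left) and log2 CPM of Ciita (right) against the length slope of each library, 1 point per mouse. Ciita is higher in libraries with a higher slope (r = 0.55 over 40 mice), and libraries with the lowest slopes are control mice at 5 d and 7 d.

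Across the 40 mice, the level of Ciita was higher in libraries with a higher length slope. The slope was fitted to the levels of 12127 genes in these libraries, so long genes tend to rise with it. How far other genes of like length did so was not measured. Where group means were kept, mice were permuted over all 8 groups, so those p-values take in differences between groups. Pearson's r was below 0 for the other 6 genes, of which H2-Aa, H2-Ab1 and H2-Eb1 passed at an adjusted p under 0.05, and by Spearman's rho H2-Eb1 was the 1 that passed. For Ciita Pearson's r was 0.55 (permutation p = 0.00023, adjusted 0.00322 over 14 relations) and Spearman's rho 0.54 (permutation p = 0.00041, adjusted 0.00574), and r was 0.51 without the 2 farthest libraries. With group means removed r was 0.39 (permutation p = 0.0232, adjusted 0.0325), rho 0.34 (permutation p = 0.0457, adjusted 0.0734), and r was 0.32 without the 2 farthest. For H2-Eb1 r was -0.47 (permutation p = 0.00276, adjusted 0.0103), rho -0.46 (permutation p = 0.00293, adjusted 0.0205), and r was -0.38 without the 2 farthest. For Cd74 r was -0.13 (permutation p = 0.42), and like H2-Eb1 this was without removing group means. With them removed, H2-Aa, H2-Ab1, H2-Eb1, H2-DMa and H2-DMb1 also passed by Pearson's r, all below 0. By Spearman's rho H2-DMb1 alone passed. For H2-DMb1 r was then -0.51 (permutation p = 0.00143, adjusted 0.0100), rho -0.46 (permutation p = 0.00518, adjusted 0.0242), and r was -0.43 without the 2 farthest.

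Of the other genes of the class II pathway, a list of 16 of which 15 were tested, 7 rose and 1 fell with hormone in control mice, beside 43.2% of all genes called and 20.3% called higher. Ctss, the cathepsin that trims the invariant chain, rose by 3.48 on the log2 scale (SE 0.74, adjusted p = 0.000391), and Lgmn, another lysosomal protease, by 1.48. March1, the ubiquitin ligase that removes class II from the surface, rose by 2.77, and the costimulatory genes Cd80 and Cd40 by 2.66 and 1.43. H2-Eb2 rose by 2.28, from a median of 0.0533 CPM without hormone to 0.232 CPM with it, and March8 by 0.46, while Ctsd fell by 0.62. Between 15 h and 5 d in control mice the list went the other way from the chain genes, with 8 lower and 0 higher, beside 20.1% of all genes called lower. March1 was at -2.42, Cd80 at -2.12, Ctss at -2.02, H2-Eb2 at -1.87 and Cd86 at -1.60. In that comparison macrophage markers had 3 lower and 1 higher of 8, and all 4 neutrophil markers were lower with a list median of -6.31, neutrophil transcripts having summed to 2490 CPM in control mouse 2 at 15 h. Without the 3 mice that stood apart at 15 h, 0 genes of the class II list were called lower and 1 higher. Ctss was then at 0.13 and Cd86 at 0.28, and the list median went from -0.58 to 0.28. Of the macrophage markers 0 were called in that fit, with a list median of 0.20.

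Antibody comparisons called 2 of the 15 tested genes of this list at 15 h, 1 at 5 d and 1 at 7 d. Of all genes, 1.14%, 8.02% and 2.50% were called at these times, and 1.14% at 7 d with hormone. At 15 h Cd86, the costimulatory ligand of CD28, fell by 2.00 and Lgmn by 1.46 on the log2 scale (both adjusted p = 0.0429). Cd86 was at 2.70, 35.5, 24.3, 3.42 and 5.57 CPM in control mice 1 to 5 and at 2.82 to 4.90 CPM in Jag antibody mice, and Lgmn at 53.0, 390, 282, 57.3 and 89.1 against 54.1 to 73.2 CPM. The high values are those of control mice 2 and 3, and without these mice and Jag antibody mouse 6 Cd86 was at -0.26 and Lgmn at -0.13 (both adjusted p = 1.00). At 5 d March8 rose by 0.59 (adjusted p = 0.0309), at 7 d Ctsd fell by 0.67 (0.0352), and with hormone 0 were called. H2-Ob, a chain of the B cell modulator H2-O, and H2-DMb2 were at 18.9 and 6.86 CPM in Jag antibody mouse 6 at 15 h, against medians of 1.34 and 0.738 CPM over all mice.

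Of 18 regulators of class II promoters 17 were tested, and hormone in control mice gave 7 higher and 3 lower, beside 43.2% of all genes called and 20.3% called higher. Rfx5, the DNA-binding RFX subunit, rose by 0.85 (SE 0.27, adjusted p = 0.0115), while Rfxank, another subunit of the same complex, fell by 1.17 (SE 0.18, adjusted p = 1.09e-05) and Nfyc, of NF-Y, also fell by 1.17. Spi1 (2.58) and Irf8 (1.92), myeloid transcription factors, and Prdm1 (1.99), a repressor of Ciita in plasma cells, were higher. From 15 h to 5 d in control mice 8 fell and 2 rose, beside 36.4% of all genes called, 20.1% lower and 16.2% higher. Rfx5 was at -1.07 (adjusted p = 0.00318) and Rfxank at 0.47 (0.0312). Without the 3 mice that stood apart at 15 h, 1 fell and 1 rose, and Rfx5 was at -0.84 (adjusted p = 0.0649). From 5 d to 7 d Irf8 fell by 1.37 (adjusted p = 0.0431), Rfxap, the third RFX subunit, fell by 0.56 and Nfyc rose by 1.07. Between antibodies, Ifngr1, a chain of the interferon-γ receptor, was higher in Jag antibody mice by 0.55 at 5 d (adjusted p = 0.00542), 0.56 at 7 d (0.00687) and 0.52 at 7 d with hormone (0.0135).

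Class I presentation genes, which serve CD8+ T cells, were not called in the antibody comparisons (0 of 12 in each by edgeR). The background share was itself low for antibody, from 1.14% to 8.02%, so 0 of 12 does not set class I genes apart. Hormone in control mice gave 4 higher and 0 lower, a smaller share than the 43.2% of all genes called there (20.3% higher), among them Tap1 (1.26), the peptide transporter, and Nlrc5 (1.15), the class I counterpart of Ciita. From 15 h to 5 d in control mice the heavy chains H2-K1 and H2-D1 rose by 0.74 and 0.59, and Nlrc5 fell by 1.76 with 3 other genes, beside 16.2% of all genes called higher and 20.1% lower. Without the 3 mice that stood apart at 15 h, H2-K1 and H2-D1 were still called, at 0.82 and 0.85, 1 gene was called lower, and Nlrc5 was at -0.91 (adjusted p = 0.072).

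**Figure D4:**
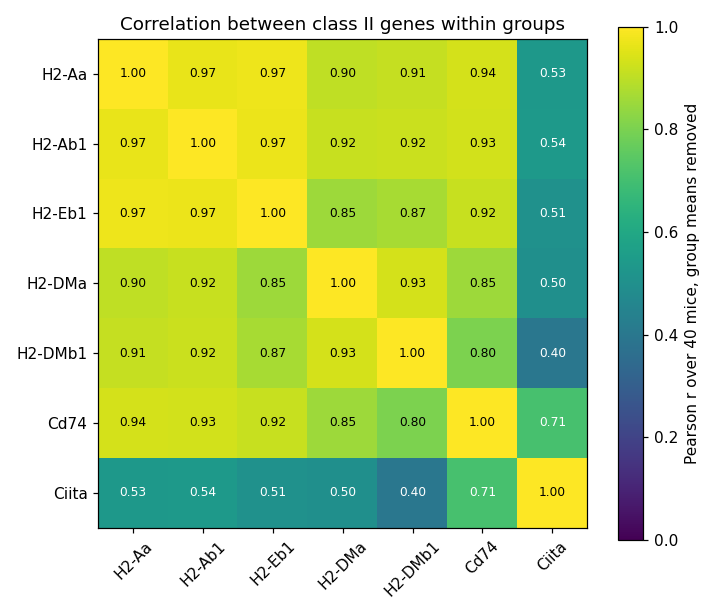
Pearson correlation between the 7 genes over 40 mice after group means were removed, with the value in each cell. Pairs of the 6 genes other than Ciita lie between 0.80 and 0.97, and pairs with Ciita between 0.40 and 0.71.

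Within groups, the 6 presentation genes varied as 1 unit from mouse to mouse and Ciita less closely with them. As a description over 40 mice with group means removed, the 15 pairs of the 6 genes had correlations of 0.80 to 0.97 (median 0.92). The 6 pairs with Ciita had 0.40 (H2-DMb1) to 0.71 (Cd74). Mice of a group differed in tissue composition and library depth, and these differences enter all of these values.

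**Figure D5:**
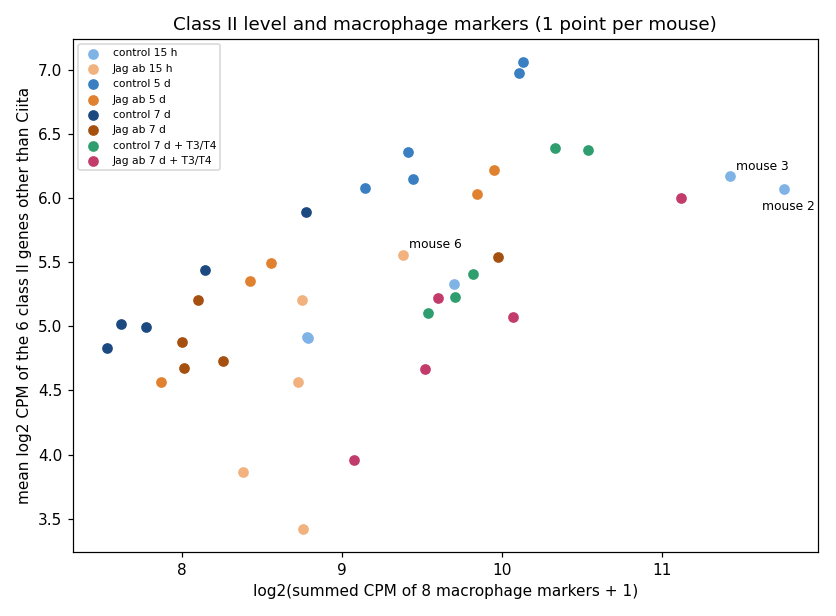
Mean log2 CPM of the 6 genes other than Ciita against the log2 of the summed CPM of 8 macrophage markers (plus 1), 1 point per mouse coloured by group. Class II levels are higher in mice with more macrophage transcripts, but control mice 2 and 3 at 15 h have the highest macrophage sums, 3470 and 2750 CPM, without the highest class II level.

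With group means removed, over 40 mice, the highest correlations with the mean of the 7 standardised levels were those of Fgd2 (0.88), Pld4 (0.87), Csf1r (0.87), Slc9a9 (0.84), P2ry6 (0.84), Rgs10 (0.83), Tnfaip8l2 (0.82) and Ly86 (0.82). Without removing group means, Rgs10 (0.86), Itm2c (0.82), Ctsh (0.81), Ly86 (0.80), Pld4 (0.80), Tnfaip8l2 (0.79), Tmem86a (0.79) and P2ry6 (0.79) led. The summed macrophage markers had a correlation within groups of 0.80 with the mean of the 6 genes other than Ciita and of 0.52 with Ciita. For T cell markers the values were 0.66 and 0.53, and for conventional dendritic cell markers 0.57 and 0.60. B cell markers had 0.51 and 0.34, endothelial markers -0.46 and 0.26, and brown adipocyte markers -0.16 and -0.59. These describe how levels ran together and assign the transcripts to no cell type.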

How the data were processed

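Total RNA of brown adipose tissue was sequenced as single-end reads of 50 bp, per the labels' protocols. The authors deposited whole-number counts per Ensembl gene and, in a second table, FPKM values for the same mice. GSNAP and limma are named in the submitters' processing notes, and the counting program, genome build and use of strand are not given in the sources used here. Groups came from the labels. Of 52636 gene identifiers 52403 matched a symbol.

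The test was edgeR's (version 4.0.16, under R 4.3.3): filterByExpr kept 17079 genes, libraries were scaled by TMM, and a robust quasi-likelihood model with a mean per group was fitted over 40 mice. P-values were adjusted by Benjamini-Hochberg over all genes tested, and called means that this value was under 0.05. CPM values use TMM-scaled library sizes, and log2 CPM a prior count of 2. Standard errors follow from the F statistic. The precision of a level is limited by depth, 12217623 to 36511893 counts per library.

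Alternatives were DESeq2 1.42.0, RLE size factors, no low-count filter, only the groups compared, a muscle score covariate, a length offset, limma 3.58.1 on log2(FPKM + 1), the title number as a block, and fits without each single mouse. Leaving out libraries with a length slope under -0.3, and 3 mice at 15 h, were added after seeing the data. The fit was tested on simulated counts. The 7 genes and all lists were chosen with earlier results of these data known. Named genes are the 7 throughout, called genes of the fixed lists, and the 8 most alike by correlation on each scale. A gene of the regulator list is not reported here.

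Same-numbered mice of the compared groups are different animals. Their deviations from group means were correlated at -0.36 to 0.67, and in no comparison were all 5 pairs over 0.1, so the numbers were not taken to pair the mice.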

Additional observations from a re-analysis of the deposited data

Results flagged for a closer look

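Over 96 groups of 5 mice (gene levels and summed marker levels), 6 contained a mouse set far from the rest: the distance to the next mouse, as a share of the group's range, exceeded 0.71, the limit of Dixon's test, which chance passes in about 4.8 of 96 groups. Cd74 in control mouse 3 at 5 d was at 9.16 log2 CPM, with the nearest mouse at 8.47. In Jag antibody mouse 6 at 15 h the summed B cell markers were at 6.68 on the log2 scale, with the nearest mouse at 2.94, and the summed T cell markers at 6.18, with the nearest at 2.64. Summed macrophage markers were at 9.98 in Jag antibody mouse 6 at 7 d, with the nearest at 8.25. Summed neutrophil markers were at 5.72 in control mouse 5 at 5 d, with the nearest at 2.51, and at 0.774 in control mouse 3 at 7 d, the lowest of its group, with the nearest at 3.19.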

How the results depend on the processing

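None of the fold changes of the 7 genes that passed the test in either fit changed direction under any alternative run. Calls were more fragile. Of the 7 genes, antibody at 5 d called 0, against 2 with DESeq2, 1 with only the groups compared and 0 to 1 when 1 mouse was left out. Hormone in control mice called 2, against 1 with RLE size factors, without the low-count filter and on log2(FPKM + 1), 4 with a length offset, and 1 to 3 when 1 mouse was left out. Hormone in Jag antibody mice called 0, against 1 with only the groups compared. The change from 15 h to 5 d in control mice called 3, against 1 with the muscle covariate, 0 with only the groups compared, 5 on log2(FPKM + 1), 5 without the 3 mice that stood apart at 15 h, and 2 to 5 when 1 mouse was left out (5 without control mouse 3 at 15 h or control mouse 1 at 5 d). From 5 d to 7 d in control mice 5 were called, against 1 with the muscle covariate, 1 with only the groups compared, 7 with DESeq2, and 3 to 7 when 1 mouse was left out. From 15 h to 5 d in Jag antibody mice 1 was called, against 0 without the low-count filter, with a length offset or with only the groups compared, 4 without the 3 mice that stood apart, and 0 to 3 when 1 mouse was left out (3 without Jag antibody mouse 6 at 15 h or mouse 8 at 5 d, 0 without mice 7, 8 or 10 at 15 h or 6, 7 or 9 at 5 d). The cause of these shifts was not tested, apart from the fewer mice in some fits. Where the mice left out at 15 h were the highest of their group, a larger rise to 5 d follows from that choice.

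When title numbers were fitted as a replicate block, 5 genes were called from 15 h to 5 d in control mice and 3 in Jag antibody mice. With the block and a length offset together the count was 4 for hormone in control mice and 0 from 15 h to 5 d in Jag antibody mice. Of the 5 mice of a group, 1 or 2 correlated best with their own number.

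The counts over all genes that give the background moved too. Called genes numbered 194 (0 to 555 over the alternatives, 6 to 683 when 1 mouse was left out) for antibody at 15 h, 1369 (89 to 1992, 384 to 2833) at 5 d, 427 (35 to 835, 144 to 912) at 7 d and 194 (117 to 662, 79 to 241) at 7 d with hormone. With the same pair of ranges, they numbered 1622 (990 to 2922, 1002 to 1903) for hormone in Jag antibody mice, 6214 (0 to 6953, 4317 to 7623) and 1559 (138 to 2834, 512 to 2632) for the steps in control mice, and 2470 (1656 to 4125, 1179 to 3294) and 562 (130 to 1331, 225 to 632) for those in Jag antibody mice. The interactions called 1 (0 to 36, 0 to 2), 17 (0 to 498, 2 to 186) and 220 (0 to 964, 1 to 951). Where edgeR with only the groups compared called 0, the genes at an unadjusted p under 0.05 numbered 2091 (antibody at 15 h), 5681 (15 h to 5 d in control mice) and 2850 (antibody by hormone), and with the muscle covariate 1262 and 1238 for the interactions with time.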
